A study of Mus musculus with 12 samples.

Results

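STAT5 regions were examined around Ctgf and Cyr61, a pair of matricellular genes, in mouse embryonic fibroblasts, matrix-making cells cultured from fetal tissue. The members are the ChIP-seq regions whose centre lies between 24.20 and 24.45 Mb on chromosome 10 (Ctgf window, 250 kb) or between 145.20 and 145.40 Mb on chromosome 3 (Cyr61 window, 200 kb), all on genome build mm9. They number 127 of the 156642 regions in 3 deposited lists, with 86 at Ctgf and 41 at Cyr61. The windows were chosen by measured values: the widest region of one list lies at the start of Ctgf, and results of these lists were known when the windows were set. The numbers, widths and positions below are therefore a description, and no test is made on them.

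The series holds 12 libraries of fibroblasts on the C57BL/6 background, isolated from fetuses of 12.5 to 13.5 days and used at passage 9 to 10, precipitated with anti-STAT5 or IgG. All libraries used here are from cells starved of serum for 5 h, then treated for 45 min with 1 µg/ml growth hormone and precipitated with the antibody to STAT5. One list is from STAT5 wild-type cells (1 library) and the others are from Stat5-/- cells that overexpress STAT5A (replicates 1 and 2, where replicate 2 bears the title of a repeat). The sources used here do not say what drives the STAT5A transgene, whether a line is a single clone or whether the replicates were separate cultures. The labels name the replicate 2 list for an unstimulated and a stimulated repeat library alike, and it was taken as stimulated because its track line names growth hormone. Regions of the other 9 libraries, among them the Stat5-/- and the unstimulated cells, were not analysed here, so no value from cells without STAT5 stands beside those below. The lists give no height, score or p-value, and the depth of each library is unknown. Fibroblast identity could not be checked against marker genes, since no expression was measured in these lists.

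CCN proteins are secreted into the extracellular matrix, where they bind integrins and heparan sulfate and modulate adhesion, migration and matrix production. Ctgf (connective tissue growth factor, now Ccn2) is known for its induction by TGF-beta and its part in fibrosis, and Cyr61 (cysteine-rich angiogenic inducer, now Ccn1) for its rapid induction by serum and its part in angiogenesis and wound repair. Both genes are widely used as readouts of YAP and TAZ acting through TEAD factors, and both respond to SRF with its actin-regulated cofactors. STAT5 is a latent transcription factor that growth hormone activates through JAK2, and as a dimer it binds the sequence TTCNNNGAA. In the RefSeq annotation of GRCm38, the protein-coding neighbours of Ctgf are Moxd1 and Enpp1, and those of Cyr61 are Znhit6 and Ddah1. Gene positions on mm9 were not used here, apart from the start of Ctgf, taken as 24.315 Mb and known only to the nearest kb. Ctgf is transcribed toward higher coordinates, so the low side of that position is upstream of the gene. The other CCN genes (Nov, Wisp1, Wisp2 and Wisp3) have no value here for lack of mm9 positions.

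The promoter sequence of Cyr61 is shown because the window around this gene held wide regions in both overexpression lists, and because the sequence can be read for the STAT recognition sequence and for the TEAD site of YAP and TAZ targets. It is the only one of the 2 members matched in the RefSeq promoter table. The 250 bases before the start of transcription, on the minus strand at chr3:145649986-145650235 of GRCm38.p6, are given 5′ to 3′. These coordinates are of another build than the regions and cannot be set against them. Capitals mark the matches to the TEAD site GGAATG, present as CATTCC on the printed strand, and to TATAAA.

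Cyr61 promoter: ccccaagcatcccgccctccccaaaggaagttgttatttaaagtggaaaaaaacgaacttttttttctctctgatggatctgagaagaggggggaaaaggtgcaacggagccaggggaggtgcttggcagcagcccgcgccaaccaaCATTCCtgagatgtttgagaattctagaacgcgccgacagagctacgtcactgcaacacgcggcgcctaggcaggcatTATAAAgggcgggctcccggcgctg

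Searched on both strands, this stretch held no TTCNNNGAA, which 7.02% of 32851 promoter stretches of the same length held. It held 1 match to GGAATG, beginning 103 bases before the start (position -103), and 12.6% of the stretches held at least 1. TATAAA began at position -25 and was in 12.4% of the stretches. A CArG box, the site of SRF (in 1.47% of the stretches), and the SMAD element CAGAC (in 42.2%) had no match. The matches do not overlap each other. They describe these letters in this window and say nothing of binding.

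At Ctgf, regions were numerous in all 3 lists. The wild-type list held 11 regions in the window, overexpression replicate 1 held 45 and replicate 2 held 30. The overexpressing cells thus had 37.5 ± 10.6 regions (mean ± SD, n = 2). This mean is 3.41 times the wild-type number, against 5.40 times for the whole lists. Over 9620 consecutive autosomal windows of 250 kb the median was 1 region for wild type, 5 for replicate 1 and 6 for replicate 2. Windows with at least as many regions as Ctgf made up 0.114% of those in the wild-type list, 0.104% for replicate 1 and 0.78% for replicate 2. The Ctgf window thus lies in the far tail of each list. It was chosen with results of these lists known, and the other windows were not, so these shares describe its place and are no test. Chromosome 10 is dense in itself, with medians of 3, 9 and 9 regions over its 507 windows, of which 1.58%, 0.592% and 1.58% reached the Ctgf number. Wild-type regions covered 4.24 kb of the window, those of replicate 1 covered 21.9 kb and those of replicate 2 covered 17.6 kb.

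The overexpression mean was above wild type under each way of counting, though only slightly at equal list length. With all regions counted, its 3.41 times fell short of the 5.40 times of the whole lists. No whole-list ratio is given for the joined or the wider regions, so those numbers do not set Ctgf apart from the lists. With each overexpression list reduced to its 13278 widest regions, the length of the wild-type list, the Ctgf window held 16 regions in replicate 1 and 10 in replicate 2 beside the 11 of wild type, 1.18 times the wild-type number on average. Replicate 2 was then below wild type. With neighbouring regions at most 100 bp apart joined, wild type had 9 regions, replicate 1 had 29 and replicate 2 had 28. With only regions at or above the median width of their list, wild type had 4 and the overexpression mean was 23.0.

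**Figure D1:**
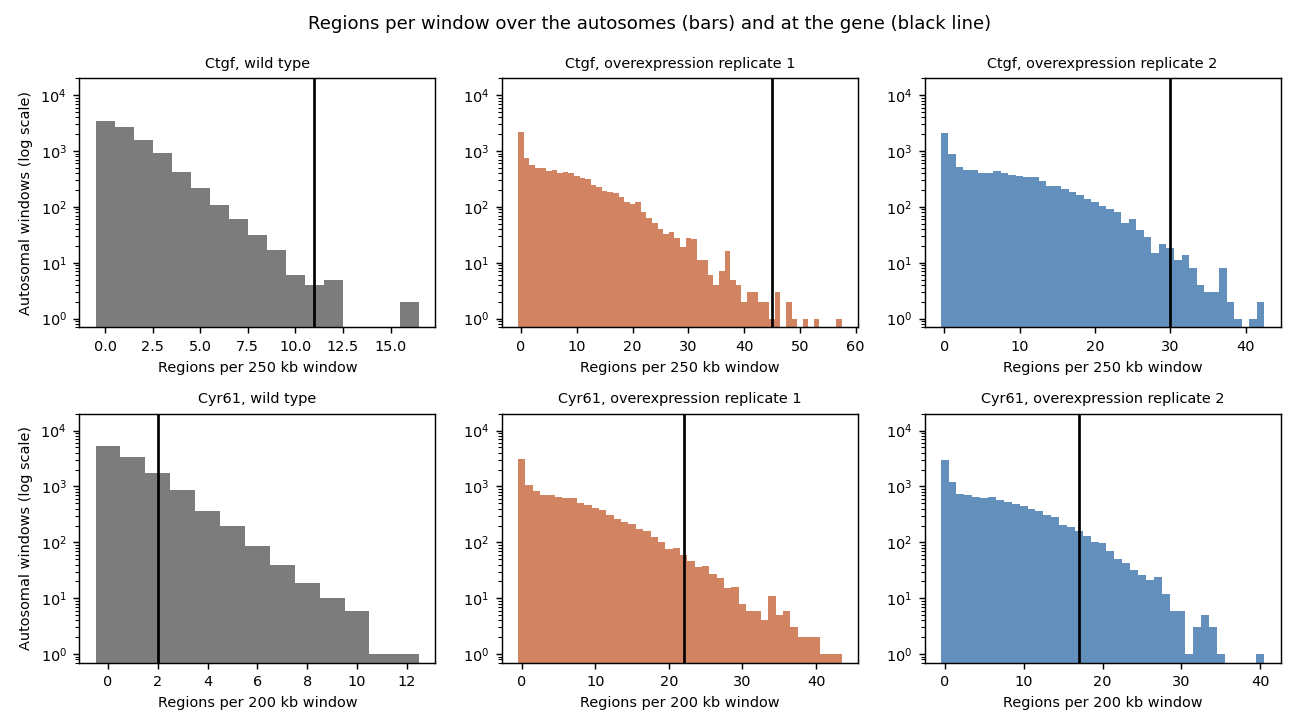
Number of STAT5 regions per window over the autosomes (bars, number of windows on a log axis) in windows of 250 kb (top row) and 200 kb (bottom row), with the number in the Ctgf or Cyr61 window as a black line, for each list. The Ctgf line, of a window chosen with results of these lists known, stands in the far tail in all 3 lists (11, 45 and 30 regions). The Cyr61 line is near the median in wild type (2 regions) and in the upper part for the overexpressing cells (22 and 17).

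Regions lay at the position taken as the start of Ctgf in every list. Since that position is known to the nearest kb, which of the narrow wild-type regions covers the start, if any, cannot be told. The wild-type region over that position, at 24314823 to 24315240, was 418 bp wide, the replicate 1 region at 24314963 to 24316021 was 1059 bp wide, and the replicate 2 region at 24314354 to 24317394 was 3041 bp wide. The last of these is the widest of its list, where the next widest are 2925 and 2846 bp. In replicate 1 the Ctgf region ranked 266 of 71561 by width, and the wild-type region was close to the middle of its list, with 59.1% of regions at or below its width. The single broad region of replicate 2 overlapped 4 regions of wild type and 4 of replicate 1. All 3 lists thus had regions within this stretch, in differing numbers and widths. Of all replicate 2 regions, 8.46% overlapped at least 2 replicate 1 regions, and 7 of the 30 at Ctgf and 6 of the 17 at Cyr61 did. The 7 include the region that set the window, and a wide region in a dense window is the likelier to do so.

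With overlapping regions of the lists merged, the stretch over the gene ran from 24314353 to 24318681, a length of 4329 bp, built from 4 wild-type regions, 6 of replicate 1 and 2 of replicate 2. Wild-type regions filled its first part only. They had summits, as the authors' list gives them, at 24314635, 24314930, 24315460 and 24316410. In replicate 1 the 6 summits lay at 24314645, 24315245, 24316135, 24316905, 24318185 and 24318550. The first summit of each list differed by 10 bp, and the other wild-type summits lay 285, 215 and 275 bp from the nearest replicate 1 summit. Beyond 24316621 the stretch was covered in the overexpressing cells and not in wild type.

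**Figure D2:**
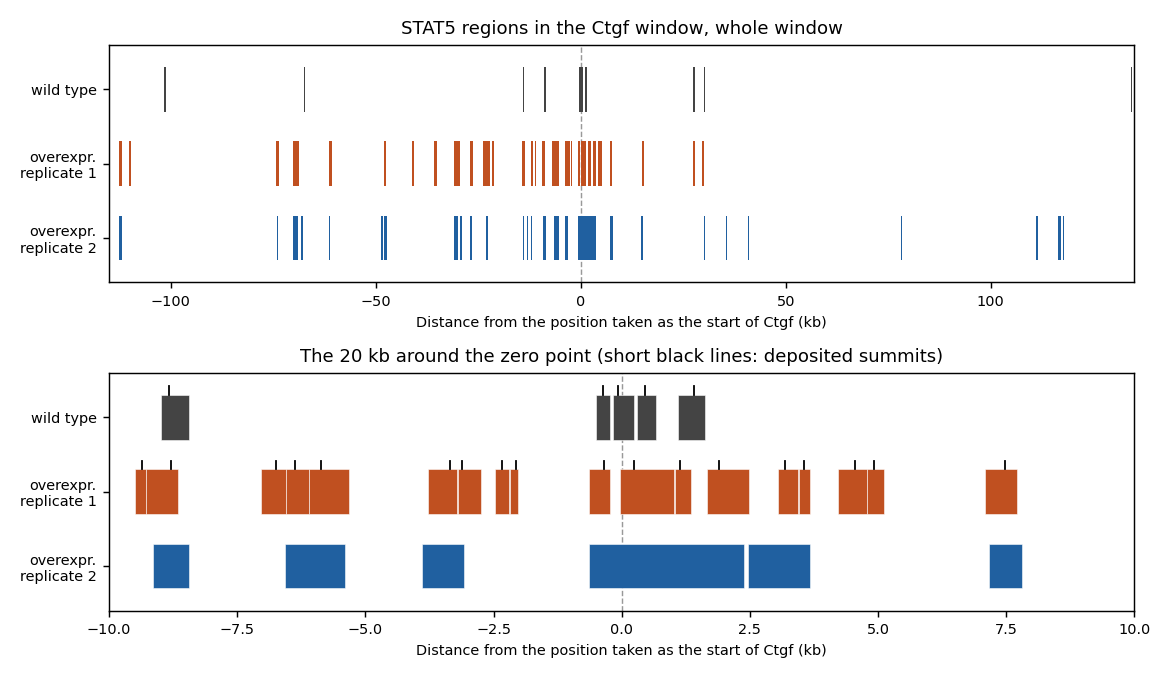
Positions of STAT5 regions (bars, to scale) in each list by distance in kb from the position taken as the start of Ctgf (dashed line), over the whole window (top) and within 10 kb of that position (bottom), with deposited summits as short black lines. All 3 lists have regions near the dashed line, and the overexpression lists hold many regions on its low side.

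Away from the start, the overexpressing cells had most regions on the low, upstream side. Within 5 kb of the start wild type had 4 regions, replicate 1 had 12 and replicate 2 had 3, where the broad region counts once. From 5 to 50 kb on the low side there were 2, 22 and 11 regions, and on the high side 2, 4 and 5. In densities, the low-side band held 4.89 regions per 10 kb for replicate 1 and 2.44 for replicate 2, the high-side band 0.889 and 1.11, and wild type held 0.444 in each. Over the whole window, replicate 1 had 34 regions below the start and 11 above it, replicate 2 had 18 and 12, and wild type had 5 and 6. Beyond 50 kb, replicate 1 had 7 regions below and 0 above, replicate 2 had 6 and 5, and wild type had 2 and 1. The uneven distribution was thus seen in both overexpression lists, in replicate 2 mainly within 50 kb, and not in wild type, where the regions are few. It was larger in replicate 1, with regions counted unjoined. In the whole window, 16 of 44 gaps between neighbours were at most 100 bp in replicate 1 and 2 of 29 in replicate 2.

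At several upstream sites, replicate 1 had adjoining regions where replicate 2 had 1 wide region. At 24307963 to 24309680, centred at -6.2 kb from the start (a minus sign marks the low side), replicate 1 had 3 adjoining regions of 479, 439 and 778 bp and replicate 2 had 1 region of 1173 bp, wider than 98.7% of its list or as wide. At 24311099 to 24312260, centred at -3.3 kb, replicate 1 had regions of 579 and 458 bp and replicate 2 had 1 of 819 bp. Further out, at 24284034 to 24285040, replicate 1 had regions of 669 and 168 bp and replicate 2 had 1 of 925 bp. Taken singly, the replicate 1 regions at these sites were not all wide. The share of their list at or below their width ran from 4.65% (168 bp) to 95.7% (778 bp). Wild type had no region at any of these 3 sites, which were picked after their widths were seen. The nearest wild-type region lay 1402 bp from the first of them.

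The 11 wild-type regions at Ctgf were followed singly into the overexpressing cells. In replicate 1, 8 of the 11 were overlapped by at least 1 bp (72.7%, 95% exact binomial interval 39.0 to 94.0%), where 32.3% of all wild-type regions were. In replicate 2, 7 were overlapped (63.6%, interval 30.8 to 89.1%), against 29.9% of the list, and the same 7 were overlapped in both, against 23.3%. At least 1 replicate overlapped 8, against 38.9%. These shares draw on the region that set the window: 4 of the overlapped regions lie side by side at the gene start, and in replicate 2 the single 3041 bp region overlaps them all. Without the stretch over the start, 4 of the 7 remaining regions had a match in replicate 1 and 3 in replicate 2, too few to set apart from the lists. Intervals cover counting error only and treat neighbouring regions as independent, which they are not.

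Of the 8 overlapped regions, 4 lie at the start and the others on both sides of it. The region at 24300863 to 24301200 (338 bp), centred at -14.0 kb, had its summit 55 bp from a replicate 1 summit. The region at 24306013 to 24306560 (548 bp), centred at -8.7 kb, had its summit 40 bp from one. On the high side, the region at 24344953 to 24345260 (308 bp), 30.1 kb above the start, had its summit 100 bp from a replicate 1 summit. These 3 were present in both replicates. The widest wild-type region of the window, 648 bp at 24342303 to 24342950, was overlapped in replicate 1 by a region of 538 bp that lay wholly within it, and the nearest replicate 2 region was 2013 bp away. Over the 8 regions the median distance to a replicate 1 summit was 97.5 bp, and over the 4294 such regions of the whole list it was 75 bp.

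The 3 wild-type regions without a match lay far from the gene. They were narrower than the list median of 379 bp, but regions with a match went down to 269 bp. Those without a match were 328 bp wide at 24213413 to 24213740, 259 bp at 24247533 to 24247791 and 238 bp at 24449223 to 24449460. Their nearest replicate 1 regions were 7992, 1322 and 9422 bp away, and the nearest replicate 2 regions 10398, 345 and 9508 bp away.

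Between the overexpression replicates, 29 of the 45 replicate 1 regions at Ctgf overlapped replicate 2 (64.4%, interval 48.8 to 78.1%), against 51.9% of the whole list. Of the 30 replicate 2 regions, 20 overlapped replicate 1 (66.7%, interval 47.2 to 82.7%), against 43.1%. The replicate 1 interval includes the share of its list. Without the stretch over the start, 23 of 39 replicate 1 regions (59.0%) and 18 of 28 replicate 2 regions (64.3%) overlapped the other replicate. Regions with a match had median widths of 588 bp (replicate 1) and 564 bp (replicate 2), and those without had 299 and 300.5 bp. The medians thus differed, while the ranges overlapped: regions with a match went down to 168 and 264 bp, and those without went up to 559 and 540 bp. A wider region is also the likelier to be overlapped by 1 bp. The bases in common came to 11.9 kb, which is 54.5% of those covered in replicate 1 and 67.9% of those in replicate 2. Of the 16 replicate 1 regions without a match, 8 lay within 1000 bp of a replicate 2 region.

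Regions far on the high side were mostly of replicate 2. Beyond the site at 30.1 kb it had 7 regions up to 117.8 kb above the start, with widths of 234 to 540 bp and a median of 299 bp, where replicate 1 had none and wild type had 1, at 134.3 kb. No region of another list overlapped any of the 7. They make up most of the 10 replicate 2 regions without a replicate 1 match, and the other 3 lay 267 to 570 bp from a replicate 1 region.

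Wild-type binding was recorded less often at Cyr61 than at Ctgf, while the overexpressing cells had many regions at both. Wild type had 2 regions in the Cyr61 window, against 22 in replicate 1 and 17 in replicate 2. Their mean of 19.5 ± 3.54 (SD, n = 2) is 9.75 times the wild-type number of 2, against 5.40 times for the whole lists. The median of 12028 autosomal windows of 200 kb was 1 region in wild type and 4 in each replicate. At least as many regions as at Cyr61 were found in 27.8% of the windows for wild type, 2.64% for replicate 1 and 6.53% for replicate 2. The wild-type number was thus common for a window of this length. On chromosome 3 itself these shares were 29.5%, 2.18% and 4.74% of 780 windows. Covered sequence came to 0.586 kb for wild type, 11.0 kb for replicate 1 and 11.7 kb for replicate 2. With the overexpression lists reduced to 13278 regions, the window held 8 regions in each replicate, 4.0 times the wild-type number, which rests on 2 regions.

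Regions of the overexpressing cells at Cyr61 lay in 3 groups. The densest part ran from 145304769 to 145316659 and held 11 regions of replicate 1 and 5 of replicate 2. It included the widest replicate 2 region of the window, 1359 bp at 145311927 to 145313285, where replicate 1 had regions of 229 and 698 bp. Next to it, at 145314063 to 145315751, replicate 1 had 4 regions of 149, 499, 519 and 489 bp, separated by gaps of 11 bp, and replicate 2 had 1 region of 1313 bp. On the high side of it, from 145339210 to 145348860, came 5 regions of replicate 1 and 3 of replicate 2, the widest of which was 1250 bp at 145347408 to 145348657. Another group from 145365766 to 145368784 held 3 and 2 regions, with 1 of 1084 bp in replicate 2. These groups were read from the map after the positions were seen. The remaining 3 regions of replicate 1 and 7 of replicate 2 lay outside them.

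**Figure D3:**
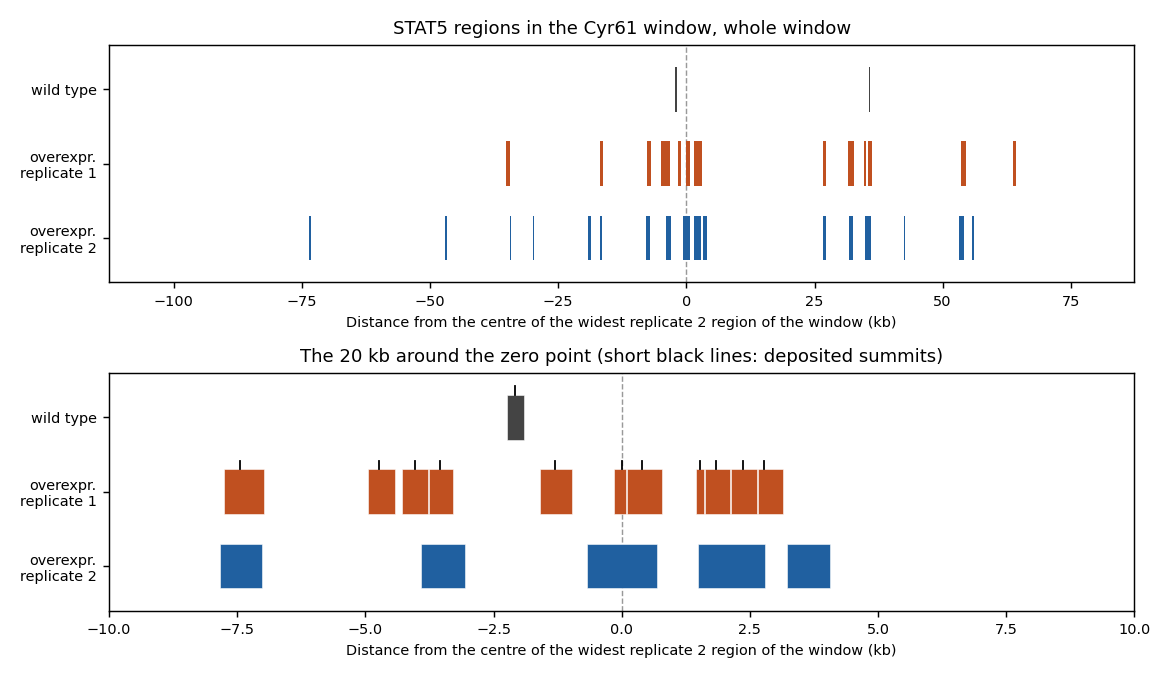
Positions of STAT5 regions (bars, to scale) in each list by distance in kb from the centre of the widest replicate 2 region of the Cyr61 window (dashed line), over the whole window (top) and within 10 kb of that centre (bottom), with deposited summits as short black lines. Wild type has 2 regions, 1 of them in a gap between regions of the overexpressing cells.

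The 2 wild-type regions at Cyr61 differed in their match. The region at 145348183 to 145348450, 268 bp wide, lay wholly within a region of each overexpression replicate, 728 bp wide for replicate 1 and 1250 bp for replicate 2. Its summit, 145348295, was 20 bp from the replicate 1 summit. The other, at 145310373 to 145310690 and 318 bp wide, lay inside the densest part but in a gap of both overexpression lists. Its nearest replicate 1 region was 312 bp away and its nearest replicate 2 region 821 bp away, and its summit was 765 bp from the closest replicate 1 summit. With 1 of 2 overlapped (interval 1.26 to 98.7%), the share cannot be told from the 38.9% of the whole list.

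At Cyr61, overlap between the overexpression replicates depended on the rule. By 1 bp, of the 22 replicate 1 regions 18 overlapped replicate 2 (81.8%, interval 59.7 to 94.8%), and of the 17 replicate 2 regions 10 overlapped replicate 1 (58.8%, interval 32.9 to 81.6%), where the whole lists gave 51.9% and 43.1%. The second interval includes the share of its list. Since 6 of the 17 replicate 2 regions overlapped at least 2 replicate 1 regions, the regions are not independent. The window was also chosen with results of these lists known, so neither interval is a test. The bases in common were 6.49 kb, or 58.9% of those covered in replicate 1 and 55.4% of those in replicate 2. Replicate 2 regions with a match had a median width of 843.5 bp and those without had 411 bp. In replicate 1 the medians were 498.5 and 523 bp, so the difference in width seen at Ctgf was not seen there. With at least 50% of both regions required to overlap, 5 of 22 (22.7%) and 5 of 17 (29.4%) were matched, below the 32.7% and 32.6% of the whole lists. By that rule 14 of 45 (31.1%) and 14 of 30 (46.7%) were matched at Ctgf, and 5 of 11 and 0 of 2 wild-type regions, against 25.4%. With centres within 200 bp, 16 of 45 replicate 1 regions (35.6%) at Ctgf and 7 of 22 (31.8%) at Cyr61 were matched, against 39.1%. For replicate 1, the share was thus above that of its list at both genes by the 1 bp rule and at neither by these others. At Ctgf its 1 bp interval included the share of the list.

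Seen from the overexpressing cells, regions with a wild-type match were few in the whole lists and at both genes. At Ctgf, 7 of 45 replicate 1 regions (15.6%, interval 6.49 to 29.5%) and 4 of 30 replicate 2 regions (13.3%, interval 3.76 to 30.7%) met a wild-type region, where 6.55% and 5.25% of the lists did. Both intervals include the share of their list, and the stretch over the start is counted in. Without that stretch, 4 of 39 (10.3%) and 3 of 28 (10.7%) did. At Cyr61, 1 of 22 (4.55%) and 1 of 17 (5.88%) did, near the shares of the lists. Counted as merged sites, Ctgf had 47, of which 4 were in all 3 lists (8.51%), 14 in both overexpression replicates alone (29.8%), 15 in replicate 1 alone (31.9%), 10 in replicate 2 alone (21.3%), 3 in wild type alone (6.38%) and 1 in wild type and replicate 1 (2.13%). The 22 merged sites at Cyr61 comprised 1 common to all lists (4.55%), 9 of both overexpression replicates (40.9%), 4 and 7 in replicates 1 and 2 alone, and 1 in wild type alone. Over the genome, 2.63% of 113354 merged sites were common to all lists, and 24.1% to the overexpression replicates without wild type. Sites of replicate 1 alone made up 29.1% over the genome, those of replicate 2 alone 35.3%, of wild type alone 7.15%, and of wild type and replicate 1 0.968%. Sites of replicate 1 alone and of wild type alone at Ctgf were thus near their genome shares.

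Median widths at both genes were above those of the lists in the overexpressing cells and below in wild type, least clearly for replicate 2 at Ctgf. In replicate 1 the median was 479 bp at Ctgf and 508.5 bp at Cyr61, against 398 bp in the list, and 30 of 45 and 16 of 22 regions were above that list median. In replicate 2 it was 420.5 bp at Ctgf and 570 bp at Cyr61, against 378 bp, with 16 of 30 and 14 of 17 regions above. Regions at or above the 90th percentile of their list numbered 8 and 5 for replicate 1, 5 and 7 for replicate 2, and 2 and 0 for wild type. At Ctgf these are like shares of the regions in each list. The Cyr61 regions of replicate 2 thus stood furthest from their list. Wild-type medians were 338 bp over 11 regions at Ctgf and 293 bp over 2 at Cyr61, against 379 bp in the list, with 4 and 0 regions above that list median, and the Ctgf regions ranged from 238 to 648 bp.

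**Figure D4:**
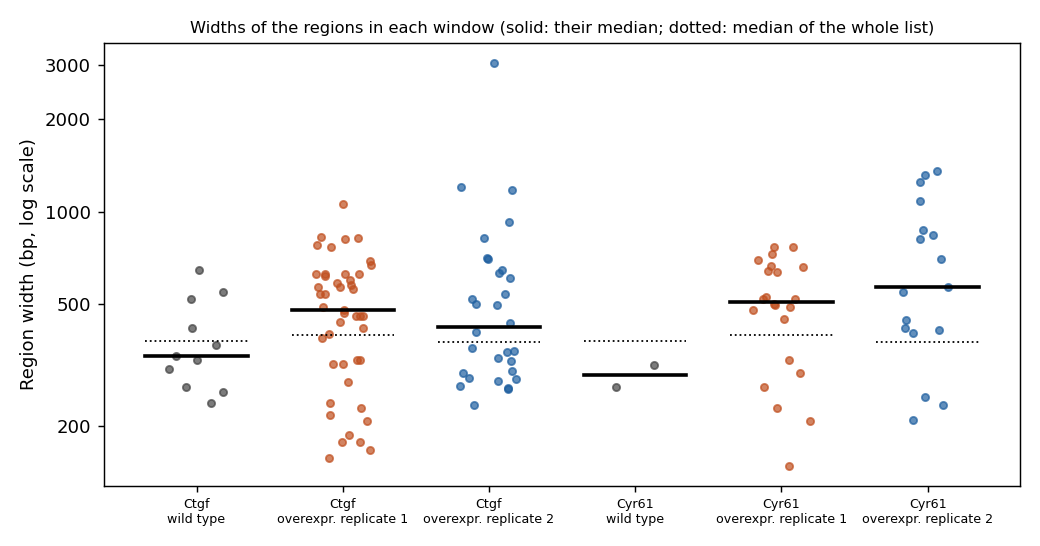
Width in bp (log axis) of each STAT5 region (points) in the Ctgf and Cyr61 windows by list, with the median of the points (solid line) and of the whole list (dotted line). The broadest point is the 3041 bp replicate 2 region at the start of Ctgf, and the medians of the overexpressing cells lie above the dotted lines.

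The lists differ in how close neighbouring regions may lie, which bears on the numbers at these dense loci. In replicate 1, 16 of 44 gaps between neighbours at Ctgf and 8 of 21 at Cyr61 were at most 100 bp, where 20.1% of the gaps in the list were. In replicate 2, 2 of 29 and 0 of 16 were, against 1.40% of the list, and in wild type 2 of 10 at Ctgf and 0 of 1 at Cyr61, against 2.54%. At Ctgf the median gap was 516.5 bp for replicate 1, 3438 bp for replicate 2 and 6377 bp for wild type. Joining regions at most 100 bp apart gave 14 stretches in replicate 1 and 17 in replicate 2 at Cyr61. The order of the replicates at Cyr61 was then the opposite of that in the numbers of regions, and at Ctgf the difference between them came to 1. The widest joined stretch at Ctgf spanned 1159 bp for wild type, 1728 bp for replicate 1 and 4320 bp for replicate 2, and at Cyr61 the overexpression replicates had 1689 and 1359 bp. The deposited start ended in the digit 2 for every wild-type and every replicate 1 member, and for 3 of 30 (Ctgf) and 0 of 17 (Cyr61) members of replicate 2. The members of replicate 2 thus differ in form from the others. The digit was counted for members only. The wild-type region next below the Cyr61 window, at 145142547 to 145143058, does not follow the pattern. The part of these differences between lists in the numbers and widths was not tested.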

How the data were processed

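ChIP-seq region lists of 3 of the 12 libraries were used, grouped by sample title. Start, end and, for wild type and replicate 1, summit of each region on mm9 were deposited by the authors as positions without a score. Replicate 2 regions have names that begin with MACS, per the file headers and names. The aligner, the caller settings and the caller of the other lists are not given in the sources used. Labels name an IgG library beside the wild-type and replicate 1 lists and none beside that of replicate 2.

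Regions were assigned to a window by their centre, and positions are given counted from 1. Overlap meant at least 1 bp. Numbers per window were set beside consecutive autosomal windows of equal length, starting at the first region of a chromosome. Shares have exact (Clopper-Pearson) 95% binomial intervals. Motifs were searched in RefSeq promoter sequences of GRCm38.p6, and TATAAA was added after the sequence was seen. The members and lists were chosen with earlier results of these data known, and no test was made. Every region in the windows was accounted for. Singly named were regions at the start of Ctgf, in every list or in wild type, and those said to be picked later. Interval functions were tested on simulated data, and bedtools 2.31.1 gave the same overlap counts. Python 3.11.15, numpy 2.4.6, scipy 1.17.1, pandas 2.3.3 and matplotlib 3.10.9 were used. Alternatives were another overlap rule, window or subset of widths, joined regions, the omission of a replicate and, at Ctgf, of the stretch over the start.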

Additional observations from a re-analysis of the deposited data

How the results depend on the processing

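Of 53 alternative values for 10 results, 37 left the number within 1.5 times and 16 did not. Orders between lists did turn: at equal list length replicate 2 had 10 regions at Ctgf against 11 in wild type, and joining gave replicate 2 more stretches than replicate 1 at Cyr61, 17 against 14. Keeping the wider part of each list left 4 wild-type and a mean of 23.0 overexpression regions at Ctgf, where 4 of the former were overlapped, and 0 wild-type regions, overlapped or not, at Cyr61. At the length of the wild-type list the means were 13.0 at Ctgf and 8.0 at Cyr61. With at least 50% of both regions overlapping, 5 wild-type and 14 replicate 1 regions were matched at Ctgf, and 0 wild-type, 5 replicate 1 and 5 replicate 2 regions at Cyr61. With centres within 200 bp, 16 replicate 1 regions were matched at Ctgf and 7 at Cyr61. Without the stretch over the start of Ctgf, left out after seeing the data, 4 wild-type regions were matched. Joining regions, also chosen after seeing the data, left 11 of 14 replicate 1 stretches matched at Cyr61. Unjoined, 18 of 22 regions were matched there. A stricter rule or shorter list can only lower these numbers. Leaving out an overexpression replicate gave 30 to 45 regions at Ctgf and 17 to 22 at Cyr61, with 7 to 8 and 1 to 1 wild-type regions matched. No paired analysis was possible because wild type has 1 library, so that the groups have 1 replicate number in common, and no test was made. Depth is unknown for every library and limits any reading of the numbers.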

Other observations

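The window limits left out regions that both overexpression replicates held. On the low side of the Ctgf window, the first region outside was 728 bp wide at 24198803 to 24199530 in replicate 1 and 673 bp at 24198804 to 24199476 in replicate 2, and the first inside was 818 bp and 609 bp wide, beginning at 24202393 and 24202406. On the high side, the next regions outside were 598 bp at 24458883 to 24459480 and 465 bp at 24458969 to 24459433. Wild type had its last region 0.659 kb inside the high limit and its next 48.0 kb outside. Around the Cyr61 window, the first regions outside were 15.2 to 32.2 kb from a limit in the overexpressing cells and 57.2 and 90.9 kb in wild type.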
